A study of Mus musculus with 5 samples.

Results

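Fibronectin and the main non-collagen components of basement membranes were followed as a set of 10 genes, chosen by symbol: Fn1, the laminin chain genes Lama2, Lama4, Lama5, Lamb1, Lamb2 and Lamc1, the nidogen genes Nid1 and Nid2, and Hspg2, which encodes perlecan. All 10 were among the 14454 gene symbols with a value. RNA was sequenced from 5 lines of NIH/3T3, an immortalised line of mouse embryonic fibroblasts. All 5 carried an integrated transgene for human histone H2A fused to EGFP, a green fluorescent protein. The histone was wild type in 1 line (wt) and had the T120D substitution in 4 lines, numbered 3, 6, 15 and 18. All lines were cultured in DMEM medium containing 10% foetal calf serum and 10 µg/ml gentamicin, and their endogenous H2A genes are not described as altered. The labels do not say whether a line was 1 clone, nor which promoter drove the transgene, and the series title concerns phosphorylation at this residue, oncogenic transformation and cyclin D1.

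Fibronectin is a secreted glycoprotein dimer that cells assemble into fibrils through integrins, and it is a major product of cultured fibroblasts. Laminins are heterotrimers of an alpha, a beta and a gamma chain that form the cell-bound sheet of a basement membrane. Nidogens bind the laminin gamma chain and link that sheet to the collagen IV network, and perlecan is a large heparan sulphate proteoglycan of the same layer. Serum also contains fibronectin, which the RNA values do not see.

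The values are RPKM, reads scaled to transcript length and library size, so levels of genes of different length can be set side by side. Summed RPKM was 158613.7 to 160825.1 per line, and estimated depth was 2530000 to 2720000 reads. Differences are T120D (mean over 4 lines) minus wt on the log2(RPKM + 1) scale, which understates changes of low genes. They were tested with limma over the 10052 genes averaging 1 RPKM or more, and a gene was called at an adjusted p under 0.05. The wt group had no replicate, so the spread came from the T120D lines alone, and p-values measure the distance of 1 wt line from that spread. Estimated reads of 283 single-transcript genes gave chi-square values per gene of 1.54 to 1.76 for pairs among lines 3, 15 and 18, where counting noise gives about 1. Pairs with line 6 gave 2.42 to 2.85, and pairs with wt 11.05 to 13.76. The independence of lines 3, 15 and 18 is thus uncertain. Nothing says that the lines came from separate cultures, so the spread may be partly technical.

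Fibroblast identity of the lines was checked on 11 markers with values, all of which passed the filter. Their summed level was 2369 to 2695 RPKM in the T120D lines and 2900 in wt. S100a4 and Vim, at T120D means of 994 and 827 RPKM, made up most of it. Of the 11, 6 were lower and 1 higher in T120D, beside 5.45% lower and 7.65% higher over all tested genes. Pdgfra, Col3a1 and Pdgfrb were 3.44-, 2.97- and 2.31-fold lower than in wt, and Thy1 was 2.71-fold higher. Cell types that lay down basement membranes were hardly seen by the markers that had values. Values were present for 3 of 8 epithelial, 4 of 8 endothelial, 4 of 8 skeletal muscle and 3 of 6 adipocyte markers, and for 5 Schwann cell markers. Among these, the highest in any line was 0.476 RPKM for epithelial, 0.64 for endothelial and 0.799 for skeletal muscle markers. It was 0.721 RPKM for Schwann cell and 0.572 for adipocyte markers. Pecam1 and Tek (endothelial), Sox10 and Erbb3 (Schwann cell) and Adipoq and Pparg (adipocyte) were at 0 in all 5 lines. Smooth muscle markers were an exception, with a sum of 106.9 to 175.1 RPKM in T120D and 36.1 in wt over 6 genes. The sum was carried by Acta2, at 88.1 RPKM on average in T120D and 18.7 in wt, and Tagln, at 45.4 and 10.4. Both were called higher (limma adjusted p = 0.00107 and 0.00355). They were 2 of 3 tested smooth muscle markers, beside 7.65% higher over all tested genes. Smtn, at 7.16 RPKM on average in T120D and 5.36 in wt, was not called. Cnn1, Des and Lmod1 had at most 0.683 RPKM in any line. The part of Acta2 and Tagln in the results below was not tested. Macrophage markers summed to 2.88 to 6.55 RPKM in T120D and 3.17 in wt.

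Fn1, Nid1 and Lamc1 were lower in the T120D lines, and Lamb1, Lamb2 and Hspg2 were not called. Of the 10 genes, 6 reached the filter of a mean of 1 RPKM, and these 6 had at least 7.16 RPKM in every line. Among them 3 were lower and 0 higher. Over all 10052 tested genes, 13.1% were called, 5.45% lower and 7.65% higher. The median log2 difference was -0.26 for the 6 genes and -0.02 for all tested genes. Lama2, Lama4, Lama5 and Nid2 lay under the filter and are described from their estimated reads.

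**Figure D1:**
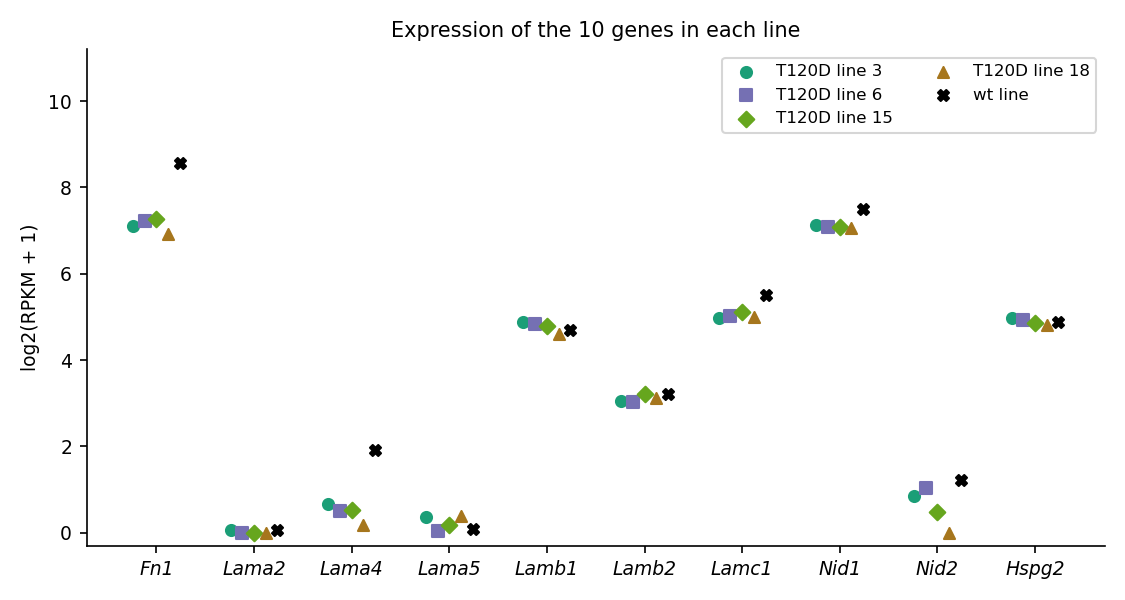
Expression of each of the 10 genes as log2(RPKM + 1) on the vertical axis, with 1 symbol per line. Fn1 and Nid1 are the highest in every line, and Lama2 and Lama5 are close to 0 throughout. The wt line lies above all 4 T120D lines for Fn1, Nid1, Lamc1 and Lamb2, which are 4 of the 6 tested members, and for 32.3% of all tested genes. It also does so for Lama4 and Nid2, which were not tested.

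Fn1 showed the widest difference of the tested members. Lines 3, 6, 15 and 18 had 136.8, 147.8, 154.3 and 119.5 RPKM, and wt had 376.4 RPKM. The wt line was far above the T120D lines, which lay within 1.29-fold of each other, with line 18 the lowest. The T120D mean was 139.6 ± 15.2 RPKM (SD, n = 4), 2.7-fold lower than wt, and by line the wt value was 2.44 to 3.15 times higher. On the log2 scale T120D minus wt was -1.43 (SE 0.13, 95% confidence interval -1.73 to -1.13; limma adjusted p = 0.0003). Among all listed genes ordered from the highest, Fn1 ranked 31 in wt and 107 to 159 in the T120D lines. These values rest on 2616 to 3417 estimated reads per T120D line and 8527 in wt. The coefficient of variation among the T120D lines was 10.9%, and counting alone gives 1.82%. The call held in all 13 alternative fits, with adjusted p from 0.000207 to 0.0301. In these bulk samples fewer cells making fibronectin and less of its RNA per cell cannot be told apart. Values are per gene symbol, so the splice forms of fibronectin, which differ between plasma and tissue, were not separated.

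Nid1, which encodes nidogen 1, the linker between laminin and collagen IV, was the other member of very high level. Lines 3, 6, 15 and 18 had 139.9, 135.3, 135.6 and 133.2 RPKM, and wt had 180.2 RPKM. The T120D lines were nearly equal, and the wt line was above all of them, as for 32.3% of all tested genes. The mean was 136 ± 2.8 RPKM (SD, n = 4), and wt was 1.32-fold higher. On the log2 scale T120D minus wt was -0.40 (SE 0.08, 95% confidence interval -0.60 to -0.21; limma adjusted p = 0.0162). The T120D lines had a coefficient of variation of 2.06%, as small as the 2.14% that counting alone gives at 2136 to 2231 estimated reads. The call ended by limma without an intensity trend (adjusted p = 0.123).

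Lamc1, the gene of the gamma chain found in most laminins, had the same direction. Its level was 30.6, 31.4, 33.4 and 30.8 RPKM in lines 3, 6, 15 and 18 and 44.7 RPKM in wt. The groups did not overlap, which was the case with wt on the upper side for 32.3% of all tested genes. The mean was 31.6 ± 1.28 RPKM (SD, n = 4), and wt was 1.42-fold higher. On the log2 scale T120D minus wt was -0.49 (SE 0.11, 95% confidence interval -0.75 to -0.23; limma adjusted p = 0.0233). This call ended without line 3 (adjusted p = 0.0532) and by limma without a trend (0.0852).

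**Figure D2:**
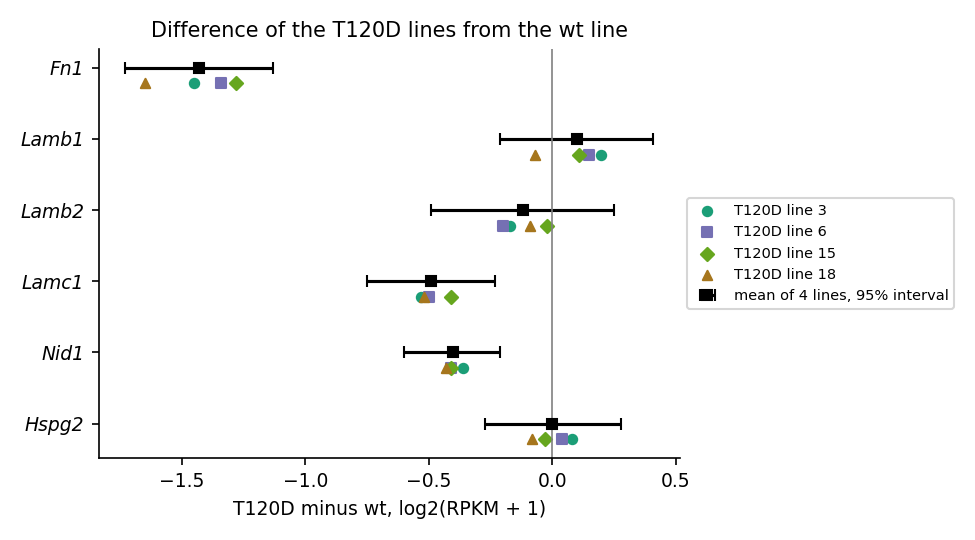
Difference from the wt line on the log2(RPKM + 1) scale for the 6 tested genes. Black squares are means of the 4 T120D lines with 95% confidence intervals from limma, and coloured symbols are single lines; the intervals of Fn1, Nid1 and Lamc1 lie below 0, and those of Lamb1, Lamb2 and Hspg2 include 0.

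The beta chain genes were not called. Lamb1, whose product pairs with the gamma chain in laminins of embryonic and many adult basement membranes, was at 28.7, 27.7, 26.7 and 23.5 RPKM in lines 3, 6, 15 and 18 and at 24.8 in wt. The wt value lay inside the range of the T120D lines. On the log2 scale T120D minus wt was 0.10 (SE 0.14, 95% confidence interval -0.21 to 0.41; limma adjusted p = 0.687). Lamb2, the beta chain gene known for neuromuscular junctions and the kidney filter, was at 7.31, 7.16, 8.22 and 7.76 RPKM in lines 3, 6, 15 and 18 and at 8.35 in wt. The wt line was the highest, by 1.02-fold over line 15. The log2 difference was -0.12 (95% confidence interval -0.49 to 0.25, limma adjusted p = 0.68). At 104 to 128 estimated reads per line, counting alone gives a spread of 9.43%, so a small difference in Lamb2 was not detectable at this depth.

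Hspg2, the perlecan gene, was at 30.3, 29.5, 27.9 and 27 RPKM in lines 3, 6, 15 and 18 and at 28.6 in wt. The wt value lay in the middle of the T120D lines. On the log2 scale T120D minus wt was 0.00 (SE 0.12, 95% confidence interval -0.27 to 0.28; limma adjusted p = 0.992). The estimates for Fn1, Lamc1 and Nid1 lay outside this interval, but the intervals of Lamc1 and Nid1, which reach -0.23 and -0.21, overlapped it.

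Sequence before the transcription start was available for 6 of the 10 genes in RefSeq on GRCm38.p6, a later build than the one named for the RPKM tables. The 250 bases before the start are printed for 3 of these genes: Nid1, which was lower, and Lamb1 and Hspg2, which were not called. Lamb2, also tested and not called, had sequence but is not printed. The other called genes, Fn1 and Lamc1, had no sequence, so Nid1 is the only lower gene shown. Capitals mark GGGCGG on either strand (CCGCCC when it lies on the other strand), the core of the GC box bound by Sp family factors.
Nid1 promoter (chr13:13437352-13437601, plus strand): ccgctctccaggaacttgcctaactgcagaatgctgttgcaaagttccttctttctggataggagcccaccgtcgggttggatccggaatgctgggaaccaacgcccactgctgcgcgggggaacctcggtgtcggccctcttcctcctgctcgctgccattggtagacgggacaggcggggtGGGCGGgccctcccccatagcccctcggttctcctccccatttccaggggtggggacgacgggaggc
Lamb1 promoter (chr12:31265043-31265292, plus strand): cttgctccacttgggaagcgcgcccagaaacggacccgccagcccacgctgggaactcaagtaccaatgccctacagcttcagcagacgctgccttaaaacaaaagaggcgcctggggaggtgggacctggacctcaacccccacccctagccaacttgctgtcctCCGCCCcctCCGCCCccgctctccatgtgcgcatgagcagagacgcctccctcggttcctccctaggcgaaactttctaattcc
Hspg2 promoter (chr4:137468553-137468802, plus strand): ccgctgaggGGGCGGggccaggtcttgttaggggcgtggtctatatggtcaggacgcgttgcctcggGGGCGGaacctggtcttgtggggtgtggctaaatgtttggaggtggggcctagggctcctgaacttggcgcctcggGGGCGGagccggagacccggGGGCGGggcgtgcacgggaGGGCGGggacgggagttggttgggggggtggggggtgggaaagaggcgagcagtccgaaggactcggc
The Nid1 window holds 1 such match, the Lamb1 window 2 and the Hspg2 window 5. Of 32851 windows of the same length in the table, 32.7% hold at least 1 and 4.09% hold at least 4. CCAAT, searched on both strands, occurs once each in Nid1 and Lamb1 and in 33.8% of all windows. No match of GGGCGG overlaps a match of CCAAT in these windows. The Lama5 window has 4 GGGCGG matches, and those of Lama2 and Lamb2 have 0. These are matches of letters and say nothing about binding.

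Of the 6 laminin chain genes among the 10, the 3 alpha chain genes were the lowest in every line. Lama4, whose chain is typical of vessels and mesenchymal cells, was the only alpha chain gene with more than 1 RPKM in a line. Lines 3, 6, 15 and 18 had 0.589, 0.427, 0.435 and 0.126 RPKM, and wt had 2.79 RPKM. On the scale of reads this was 9, 7, 7 and 2 reads in the T120D lines and 46 in wt, and all 5 estimates came within 0.034 reads of a whole number. The exact Poisson 95% interval in wt, 33.7 to 61.4 reads, lay above those of all T120D lines, of which the highest reached 17.1. The rate in the wt library was 7.11 times that of the summed T120D libraries (exact 95% interval 4.28 to 12.1, which covers counting error in these libraries only). With a mean under 1 RPKM over the 5 lines, Lama4 was not tested in the main fit. In the fit without a filter its log2 difference was -1.45 (SE 0.21, limma adjusted p = 0.0422), where 6.99% of 14454 genes were called. With a pseudocount of 0.1 RPKM in that fit it was -2.66 and was not called (limma adjusted p = 0.148).

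Lama5, the alpha chain gene of most epithelial basement membranes, was at 8, 1, 4 and 9 estimated reads in lines 3, 6, 15 and 18 and at 2 reads in wt. In RPKM these were 0.278, 0.0324, 0.132, 0.3 and 0.0644. The wt value fell within the T120D range, and the rate in wt was 0.351 times that in T120D with an exact 95% interval of 0.04 to 1.43. Lama2, the chain of muscle and nerve basement membranes, had 1 estimated read in line 3, 1 in wt and 0 in lines 6, 15 and 18. A count of 0 allows up to 3 reads as a one-sided limit, or 0.115 to 0.119 RPKM in those lines, and the two-sided exact interval reaches 3.69 reads. No difference in Lama2 or Lama5 was detectable at this depth.

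Nid2, the second nidogen gene, was far below Nid1. Its level was 0.81, 1.06, 0.385 and 0 RPKM in lines 3, 6, 15 and 18 and 1.35 RPKM in wt, or 10, 14, 5 and 0 estimated reads against 18. The wt line was the highest, but its exact interval of 10.7 to 28.4 reads overlapped those of lines 3, 6 and 15. In line 18 a count of 0 allows up to 0.234 RPKM (one-sided, 3 reads), and the exact interval of line 15, which starts at 1.62 reads, overlaps this. The rate in wt was 2.4 times that of the summed T120D reads (exact 95% interval 1.25 to 4.47, counting error only), and limma without a filter did not call it (log2 difference -0.64, adjusted p = 0.508). Nid2 made up 0.744% of the RPKM of both nidogens in wt and 0 to 0.776% in the T120D lines, so the wt share lay inside that range.

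**Figure D3:**
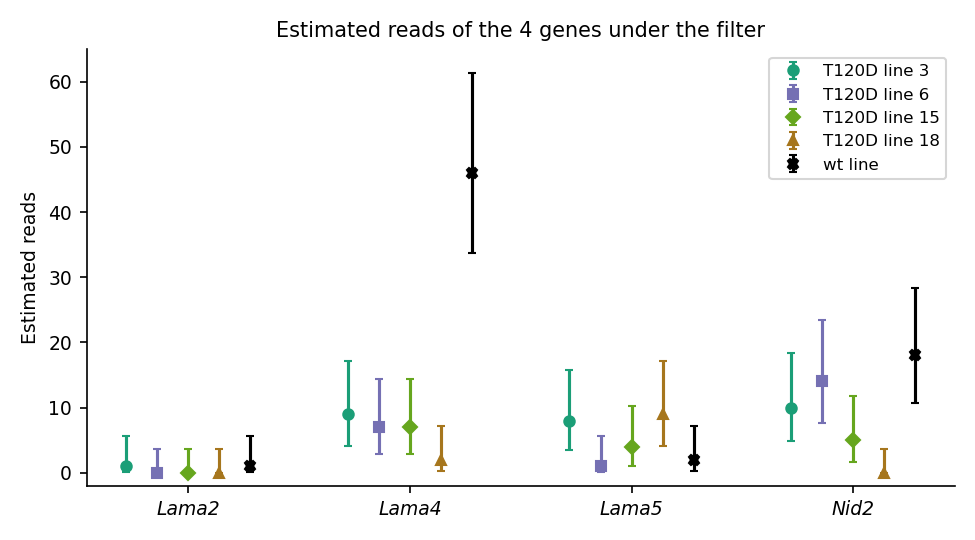
Estimated reads of the 4 genes under the filter, with exact Poisson 95% intervals that cover counting error only; each symbol is 1 line. Lama4 in wt, at 46 reads, stands above all T120D lines, while the intervals of wt and most T120D lines overlap for Lama2, Lama5 and Nid2.

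Because RPKM is per length, the chains of a laminin trimer can be set beside each other within a line. With Lama3 included, the alpha chain genes summed to 0.426 to 0.907 RPKM in T120D and 2.89 in wt. The beta chain genes summed to 31.3 to 36 RPKM in T120D and 33.1 in wt. The gamma chain genes Lamc1 and Lamc3 summed to 30.8 to 33.6 RPKM in T120D and 44.7 in wt. In wt the gamma sum was well above the beta sum, and in each of the 4 T120D lines it was below the beta sum, by little in line 18. Alpha chains were 3.58% of the summed RPKM of these chains in wt and 0.676 to 1.34% in the T120D lines. These are sums over the chains named here, not over all laminin chains. Lama4 made up 96.5% of the RPKM of the 3 member alpha chains in wt and 29.5 to 93% in T120D, shares that rest on few reads in T120D.

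**Figure D4:**
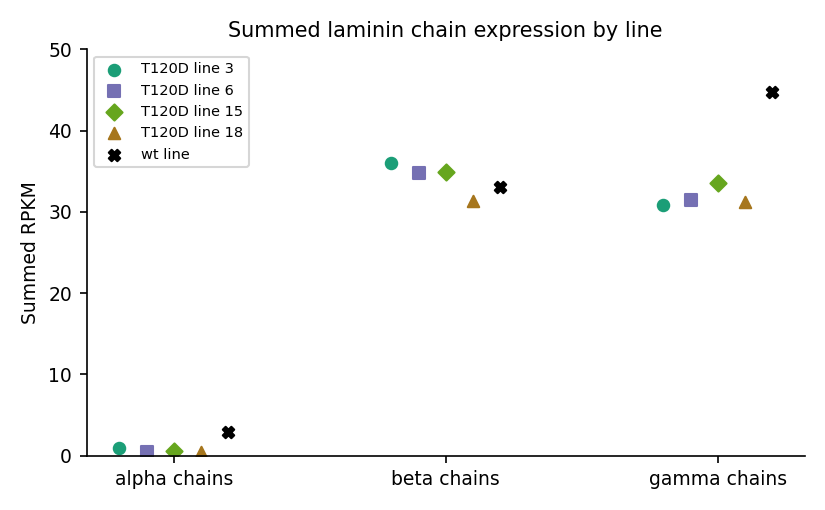
Summed RPKM of the laminin alpha (Lama2, Lama3, Lama4, Lama5), beta (Lamb1, Lamb2) and gamma (Lamc1, Lamc3) chain genes, 1 symbol per line, on an axis from 0. The alpha sums stay under 3 RPKM in all lines, and the wt line, at 44.7 RPKM, stands apart in the gamma sum.

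Ratios between members within a line do not depend on how the lines were scaled against each other. Fn1 was at 2.09 times the RPKM of Nid1 in wt and at 0.897 to 1.14 times in the T120D lines. Relative to Hspg2, Fn1 was 13.2 times higher in wt and 4.43 to 5.53 times in T120D. Lamb1 was at 0.553 times Lamc1 in wt and at 0.763 to 0.937 times in T120D. In contrast, Nid1 was at 4.03 times Lamc1 in wt and at 4.06 to 4.57 times in T120D, the wt ratio lying just under the lowest of these. Lamb1 was at 2.97 times Lamb2 in wt and at 3.03 to 3.92 times in T120D. With 1 wt line, an exact permutation cannot give a one-sided p under 0.2, so these ratios are given as values without a test. Together the 10 genes summed to 342.2 to 387.2 RPKM in T120D and 667.3 in wt, or 0.216 to 0.241% and 0.42% of all RPKM. Without Fn1 the sums were 222.7 to 238.5 and 290.9 RPKM.

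Line 18 had the lowest T120D value for Fn1, Lama4, Lamb1, Nid1, Nid2 and Hspg2, and line 6 was not the extreme line for Fn1, Lamc1 or Nid1. Without line 6, which had the highest chi-square values against the other T120D lines over the 283 single-transcript genes, the log2 differences of Fn1, Lamc1 and Nid1 were -1.46, -0.49 and -0.40, all still called. With lines 3, 15 and 18 averaged as 1 sample, a fit added after the data were seen, the 3 genes were also called.

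Other genes of the same structures were followed in 7 lists with 84 tested genes, of which 14 were higher and 8 lower in T120D. These are 16.7% and 9.52% of the genes tested, beside 7.65% and 5.45% of all tested genes, and the lists were chosen with earlier results known. Of laminin chain genes outside the 10, Lama3 and Lamc3 had at most 0.384 RPKM in any line and were not tested. Of 11 tested genes for collagen IV and other basement membrane proteins, 2 were higher (18.2%) and 4 lower (36.4%), with a median of -0.07. Col4a1, the major collagen IV chain gene, was at 9.79 ± 0.846 RPKM against 4.82 (log2 difference 0.89, limma adjusted p = 0.0105). Col4a2, its neighbour and partner chain, was at 7.82 ± 0.661 RPKM against 5.71 (0.39, limma adjusted p = 0.173). Col4a6 was at 3.98 ± 0.508 RPKM against 10.8 (-1.25, limma adjusted p = 0.00516). Called collagen IV genes thus lay in both directions: Col4a5 was lower as well, at 10.3 ± 0.7 RPKM against 16.3 (-0.61, limma adjusted p = 0.03).

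Sparc, a calcium-binding matrix protein gene, was at 213 ± 13.8 RPKM (SD, n = 4) against 322.2 (log2 difference -0.60, limma adjusted p = 0.00573). Tinagl1, a laminin-binding matricellular gene, was at 40 ± 4.15 RPKM against 22.7 (0.79, limma adjusted p = 0.00886). Smoc1, the remaining lower gene, was at 0.813 ± 0.506 RPKM against 3.38, and passed the filter through the wt line. Its call ended in 11 of 12 alternatives. Col4a5 and Smoc1 were named after their values were seen. Calls of Sparc and Tinagl1 each ended in 3 of 13 alternatives, without the filter among them (limma adjusted p up to 0.0671 and 0.0777), and that of Col4a5 in 5, without line 3 and without line 18 among them (up to 0.0615).

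Of 12 tested genes for receptors of laminin and fibronectin, 2 were higher and 0 lower, with a median of 0.29. In both directions together 16.7% were called, beside 13.1% of all tested genes. By direction these are 16.7% higher and 0% lower, beside 7.65% and 5.45% of all tested genes. Itgb1, the beta subunit shared by most matrix-binding integrins, was at 97.4 ± 4.85 RPKM (SD, n = 4) against 68.8 (log2 difference 0.49, limma adjusted p = 0.014), a call that ended in 2 of 13 alternatives (0.0891 at most). Cd44, which binds hyaluronan as well as matrix proteins, was at 65.7 ± 7.38 RPKM against 28.6 (1.17, limma adjusted p = 0.00121). Itga5, the alpha subunit of the main fibronectin receptor, was at 23.2 ± 2.23 RPKM against 23.6 and was not called (limma adjusted p = 0.915). Itga6, an alpha subunit of laminin receptors, had 9.34 ± 0.275 RPKM in T120D and 6.84 RPKM in wt (0.40, limma adjusted p = 0.12). Dag1, which encodes the laminin receptor dystroglycan, had 32.8 ± 1.66 RPKM in T120D and 41.7 RPKM in wt (-0.34, limma adjusted p = 0.0908).

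Of 19 tested genes for fibronectin fibril assembly, its binding partners and adhesion adaptors, 7 were higher and 1 lower, with a median of 0.36. These are 36.8% and 5.26%, beside 7.65% and 5.45% of all tested genes, in a list chosen with earlier results known. Thbs1, a thrombospondin gene, had 100.2 ± 10.6 RPKM (SD, n = 4) in T120D against 10.1 RPKM in wt, and Tnc, encoding the fibronectin-binding tenascin C, 20.6 ± 2 RPKM against 3 RPKM (limma log2 differences 3.18 and 2.43). Zyx, an adaptor of focal adhesions, was at 90.8 ± 9.15 RPKM against 51.9 (log2 difference 0.79, limma adjusted p = 0.00611), and its call ended without the filter (0.0786 at most). Src, a kinase of focal adhesions, was at 12.6 ± 0.823 RPKM against 7 (0.77, limma adjusted p = 0.0124). Postn, encoding periostin, was the lower gene and was named after its value was seen, at 1.04 ± 0.602 RPKM against 4.25, and its call ended in 9 of 12 alternatives.

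Of 42 tested genes for enzymes that modify or cut these proteins, in 3 lists, 14.3% were called, beside 13.1% of all tested genes. By list the share was 9.09% for glycosylation of dystroglycan, 7.14% for heparan sulphate and 23.5% for proteases. Of 11 tested genes for glycosylation of dystroglycan, which creates its laminin-binding sugar, 1 was higher: Pomgnt1, at 8.83 ± 0.981 RPKM (SD, n = 4) against 5.34 (limma adjusted p = 0.0497, lost in 8 of 13 alternatives). Of 14 genes for heparan sulphate, the chains carried by perlecan, 1 was lower: Glce, an epimerase, at 12.8 ± 2.17 RPKM against 24.5 (log2 difference -0.90, limma adjusted p = 0.023, lost in 4 of 13 alternatives). Among 17 proteases, 2 were higher and 2 lower. Plat, the tissue plasminogen activator gene, was at 2.69 ± 0.598 RPKM against 12.7 (-1.91, limma adjusted p = 0.00158), while Plau, the urokinase gene, was at 5.94 ± 0.848 against 2.03 (1.18, limma adjusted p = 0.00806, and 0.0512 without the filter). Adamts1, a proteoglycan-cutting protease gene, was higher (0.61, limma adjusted p = 0.0179, lost without a trend at 0.0572) and Ctsb, encoding cathepsin B, was lower (-0.47, limma adjusted p = 0.0279, lost in 4 of 13 alternatives).

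**Figure D5:**
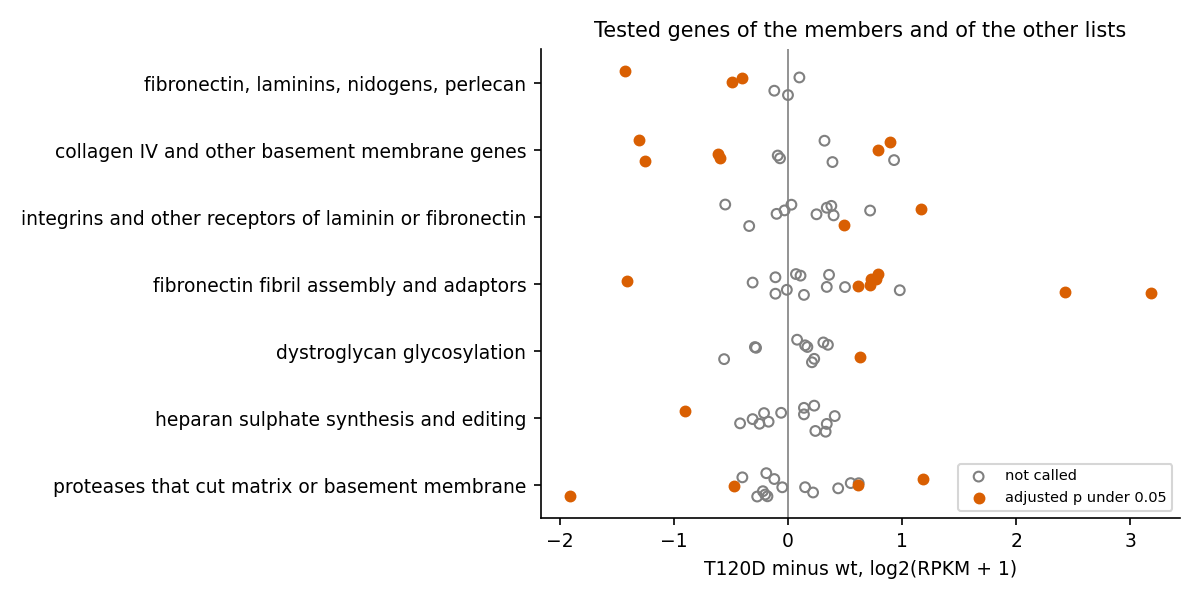
Difference from wt on the log2(RPKM + 1) scale for each tested gene of the 10 members and of the 6 other lists with tested genes, with called genes filled; vertical position within a row is random. The 3 called members lie to the left of 0, and the called genes for fibril assembly and adaptors lie to the right except Postn.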

How the data were processed

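Messenger RNA was measured in 5 lines, 4 T120D and 1 wt, grouped by their titles. The authors deposited 1 table of RPKM values per line; Partek and build mm9 are named in the submitters' processing notes. The sources used here name no aligner, annotation or strand setting, so overlapping genes such as Col4a1 and Col4a2 are uncertain. The members and lists were chosen with earlier results of these data known.

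Values were analysed as log2(RPKM + 1) for genes averaging 1 RPKM or more, with limma 3.58.1 in R 4.3.3 (empirical Bayes, intensity trend, two-sided, 3 residual and 5.99 prior degrees of freedom) and Benjamini-Hochberg adjustment over 10052 genes. The fit was run on simulated data in which the lines were independent and wt varied like the T120D lines. It therefore could not test either assumption. Depth was estimated from single-transcript genes of GENCODE M21 (GRCm38), whose low values fell within 0.05 reads of a whole number in 43.1 to 45.8% of cases, where chance gives 10%. Reads of members use the longest coding transcript there, so they are approximate, and no count model was run. Intervals are exact at 95% and cover counting error only. All 10 members are named. Of each other list, up to 4 called genes with the smallest adjusted p are named, and Col4a1, Col4a2, Itga5, Itga6, Itgb1 and Dag1 whatever their values. Some list genes are not reported here. Alternatives were the filter, pseudocount, trend, scaling and leaving out each T120D line.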

Additional observations from a re-analysis of the deposited data

Results flagged for a closer look

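Among the 10 genes, each checked over the 4 T120D lines for a line far from the others, Lama2 was the one where a line stood apart: line 3 was at 0.0407 RPKM and the other T120D lines were at 0. That value corresponds to 1 estimated read. Chance picks out about 5% of groups by this criterion, and values at 0 make it easier to meet.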

How the results depend on the processing

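No paired analysis was possible because the single wt line shares no replicate number with the T120D lines. Fn1 was called in all 13 alternatives, Nid1 in 12, Lamc1 in 11, and Lamb1, Lamb2 and Hspg2 in 0. By limma without a trend, 1 member was lower, Fn1, in place of 3, and 455 genes were higher and 361 lower over all genes, against 769 and 548. Leaving out 1 T120D line gave 2 to 3 lower members, 560 to 796 higher genes and 395 to 586 lower genes. Without a filter 415 genes were higher, and with a pseudocount of 0.1 RPKM as well 414; with genes at 0 in all lines removed, 434. Higher genes made up 58.4% of calls as reported and 41.0%, 46.9% and 45.8% in these 3 fits. Of the genes of the other lists, 8 were lower, against 5 at a mean of at least 5 RPKM, 2 without a trend, 4 with lines 3, 15 and 18 averaged and 4 to 9 without 1 line. The last 2 of the fits without a filter and the averaged fit were added after the data were seen. The sign of Hspg2 turned under quantile normalization (-0.07) and without 1 line (-0.02 to 0.03, negative without line 3 or line 6), and that of Itga5 without line 18 (-0.06 to 0.04 without 1 line); none of these was called. The share of Nid2, as T120D mean over wt, was 0.549, with 0.384 to 0.732 without 1 line and 0.878 with 1 RPKM added. The ratio of Lamb1 to Lamb2, taken likewise, was 1.19, with 1.14 to 1.24 and 1.17. The share of Lama4 was 0.684, with 0.591 to 0.811 and 0.602. The causes were not tested. Depth limits Lama2, Lama5 and Nid2, which had at most 18 estimated reads in a line.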
